A study of Homo sapiens with 64 samples.

Results

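Lowering either of 2 proteins of the same RNA-modifying particle, FBL or NOP56, was compared directly in HEK293T cells at 6, 12 and 24 h of a time course. The comparison holds 12 of the 64 libraries of the study. Of these, 6 were from cells given the small interfering RNA (siRNA) siFBL and 6 from cells given siNOP56, with 2 replicates at each hour. They were chosen by cell line, siRNA and hour as the labels give them. HEK293T, the line of all cells compared here, came from human embryonic kidney and expresses a viral large T antigen. The 6 libraries from cells given the control siRNA, siCTRL, at these hours and the 4 siFBL and siNOP56 libraries at 0 h are given beside the results. The series design states mRNA half-life as the purpose of the hours. The sources used here do not state how transcription was stopped or whether the replicates are separate cultures, so p-values measure the spread between these samples, which may be technical. The design text writes shNOP56 where the sample labels write siNOP56, and the labels were followed. The libraries are of polyA RNA. The 12 held 17306817 to 19881543 counts each over 25207 gene symbols.

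FBL, also called fibrillarin, is the methylating enzyme of the box C/D small nucleolar ribonucleoprotein (snoRNP). The particle is built on a guide RNA with a C box and a D box, which pairs with ribosomal RNA or small nuclear RNA and places a 2′-O-methyl group on it. NOP56 and NOP58 form the coiled-coil scaffold of the particle and NHP2L1 (also called SNU13) binds the guide RNA first. The comparison asks which mRNAs differ at the same hour between cells given siFBL and cells given siNOP56.

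Levels are given in CPM, counts scaled to a common library size with trimmed mean of M-values (TMM) factors. They are relative to the other RNAs of the same library, so a change in total RNA per cell and a change in cell number cannot be told apart from them. Differences are log2 values, siFBL minus siNOP56 with hour as a factor, from edgeR's quasi-likelihood test. A gene is called where the Benjamini-Hochberg adjusted p is below 0.05.

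Before any difference between the siRNAs is read, the libraries show a structure that touches all of them. In siFBL, the gene-by-gene difference between replicates 1 and 2 at one hour correlated with that at another hour at r = 0.713 to 0.741 across 14250 genes. In siNOP56 these correlations were 0.611 to 0.656, and in siCTRL 0.023 to 0.0368. Genes are not independent replicates, and these values are descriptions. The libraries of one siRNA and one replicate number are called a replicate series here. Replicate 2 was over 2-fold higher or lower than replicate 1 at each of the 3 hours for 544 genes in siFBL (3.82%), for 277 in siNOP56 (1.94%) and for 2 in siCTRL. Over the means of the 3 hours, the siFBL series lay 0.574 apart (root mean square log2 difference) and the siNOP56 series 0.483. The first siFBL series lay 0.39 from the first siNOP56 series and 0.448 from the second, both closer than to the other siFBL series. The 2 siCTRL series were 0.19 apart. The adjusted p-values below count the 3 hours of a series as separate samples. For this reason counts of calls are given also from limma-voom with the replicate series as a random block, called the series block, whose estimated correlation within series was 0.767.

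**Figure D1:**
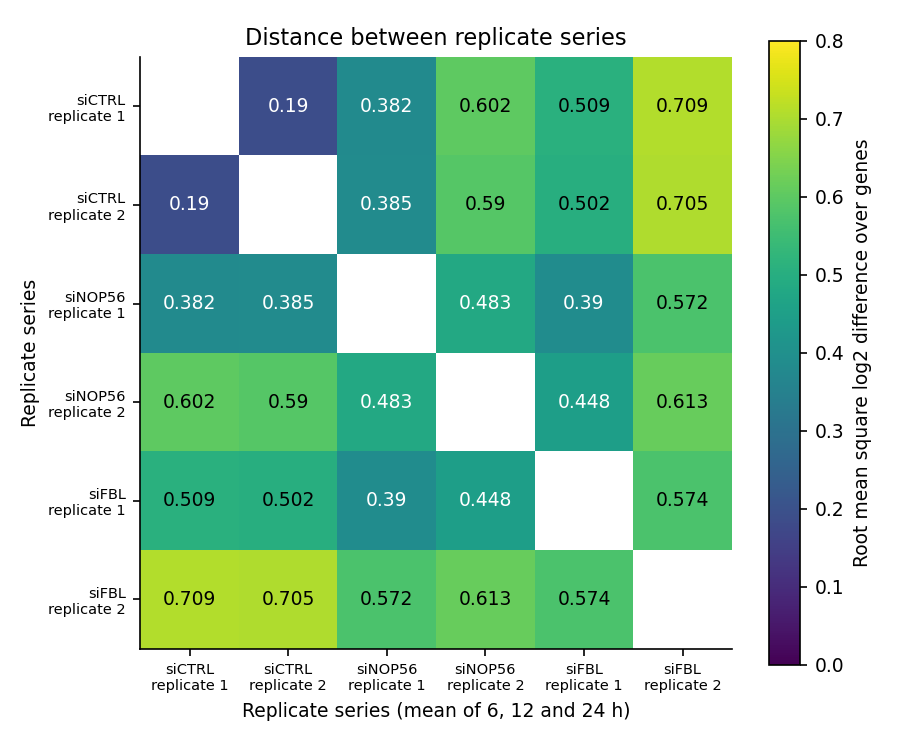
Root mean square log2 difference over 14250 genes between each pair of the 6 replicate series, each a mean of 6, 12 and 24 h; colour and number give the same value. The siFBL series differ by 0.574, more than the 0.39 between the first series of siFBL and of siNOP56, while the siCTRL series differ by 0.19.

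Each siRNA lowered its own target at every hour. FBL stood at 9.59 and 14.7 CPM at 6 h in the siFBL replicates, at 8.06 and 15.7 at 12 h, and at 7.19 and 14.8 at 24 h. With siNOP56 it stood at 549 and 468, 573 and 442, and 484 and 316 CPM at these hours, and with siCTRL at 303 to 485 CPM. No siFBL library came near the others. FBL was lower with siFBL than with siNOP56 by a log2 difference of −5.32 (SE 0.243, n = 6 libraries each), and it kept its call with the series block (adjusted p = 3.33e-10). Against siCTRL, FBL was not called with siNOP56 (log2 0.19, edgeR adjusted p = 0.427). The FBL gene lies on chromosome 19, 39834458 to 39846414, on the minus strand (GENCODE release 29, GRCh38).

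NOP56 stood at 73.7 and 49.9 CPM at 6 h with siNOP56, at 76.4 and 52.1 at 12 h, and at 88 and 51.5 at 24 h. With siFBL it went from 261 and 256 CPM at 6 h over 169 and 172 at 12 h to 140 and 138 at 24 h. With siCTRL it was 169 and 176, 154 and 146, and 166 and 160 CPM. NOP56 with siFBL was thus above both siCTRL libraries at 6 and 12 h and below both at 24 h. The log2 difference between siFBL and siNOP56 was 1.49 over the 3 hours (SE 0.199, edgeR adjusted p = 0.00451), and 2.06 at 6 h, 1.41 at 12 h and 0.99 at 24 h. The call was not kept with the series block (adjusted p = 0.159). Against siCTRL, siNOP56 lowered NOP56 by a log2 difference of −1.31, and siFBL lowered FBL by −5.14. The 2 target mRNAs were thus lowered to unequal depth. In every difference between the siRNAs, depth of knockdown and choice of target cannot be told apart. NOP56 lies on chromosome 20, 2652145 to 2658393, on the plus strand (GENCODE release 29, GRCh38).

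The other core mRNAs were not called. NOP58 ranged from 142 to 187 CPM with siFBL and from 137 to 251 with siNOP56 over the 3 hours (log2 −0.26, edgeR adjusted p = 0.146). NHP2L1 ranged from 138 to 223 and from 141 to 209 CPM (log2 −0.01, edgeR adjusted p = 0.943). The ranges of both overlap.

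**Figure D2:**
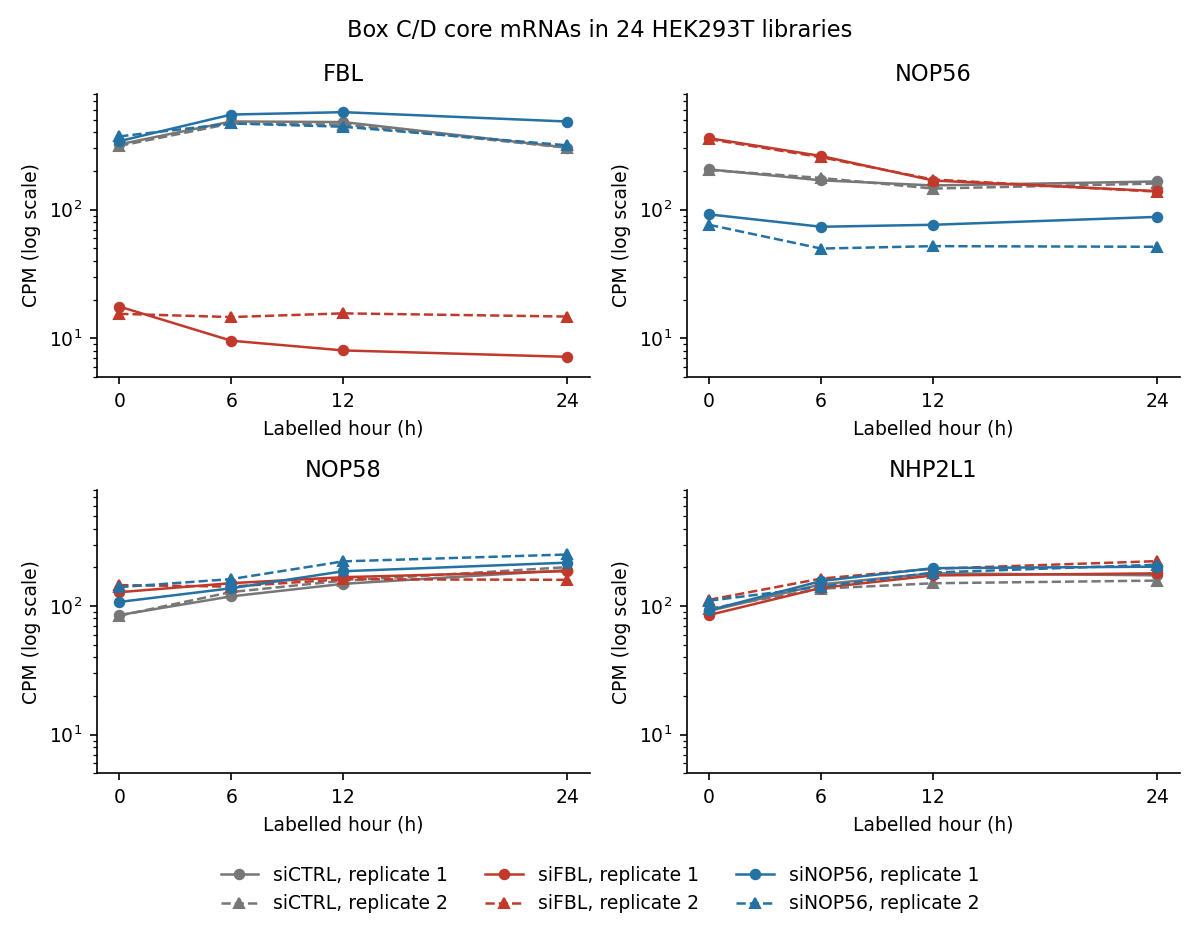
CPM (log scale) of the 4 box C/D core mRNAs against labelled hour, 1 point per library, replicates 1 and 2 joined as solid and dashed lines. Over all hours shown, FBL is at most 17.7 CPM in the siFBL libraries and at least 303 in the others. NOP56 goes with siFBL from 360 and 354 CPM at 0 h to 140 and 138 at 24 h. With siNOP56 it stays between 49.9 and 91.9 CPM.

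Beyond the core, many mRNAs were called between the siRNAs when the hours of a series counted as separate samples, and few with the series block. Of 14250 genes tested, 702 (4.93%) were called, 401 higher (2.81%) and 301 lower (2.11%) with siFBL. Their median absolute log2 difference was 0.57, against 0.20 over all genes tested, and 79 differed by more than 2-fold, 42 higher and 37 lower. In 672 of the 702, both libraries of one siRNA lay beyond both of the other at each hour. Over all genes tested, both siFBL libraries lay above both siNOP56 libraries at each hour in 5.33% and below in 5.19%. With the series block 6 genes (0.0421%) were called, and 511 of the 702 had an unadjusted p below 0.05 there. Leaving out any 1 siFBL library of replicate 2, or any 1 siNOP56 library, gave 190 to 400 calls, and leaving out a whole series gave 3986 (siFBL replicate 1), 548 (siFBL replicate 2), 1754 (siNOP56 replicate 1) and 736 (siNOP56 replicate 2). When values were scaled to the ribosomal protein mRNAs instead, the median gene moved by 0.13 and the calls became 866 higher and 156 lower, so the share of higher among called genes went from 57.1% to 84.7%.

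The 6 genes called with the series block were FBL, UBR7, UBE3C, NOTCH3 and DDX46, all lower with siFBL, and TMEM109, which was higher. The series block applies 1 correlation to all genes and still draws its spread from 12 libraries, not from 2 series a side. With counts summed over the hours of each series, 1 gene was called by edgeR. It was FBL, the target of siFBL, lower with siFBL. UBR7, of the UBR family of ubiquitin ligases, stood at 9.59 and 19, 9.14 and 14.3, and 9 and 14.8 CPM with siFBL at 6, 12 and 24 h. With siNOP56 it was at 46 and 39.3, 37.4 and 33.4, and 35.5 and 29.1 CPM, close to the 31.5 to 50.5 CPM of siCTRL. The groups do not overlap (log2 −1.53, SE 0.187, edgeR adjusted p = 0.0034, series block adjusted p = 0.0199).

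NOTCH3, a Notch receptor, was lowered by both siRNAs and further by siFBL. It stood at 37.6 to 48.5 CPM with siFBL, 75.9 to 98.9 with siNOP56 and 120 to 154 with siCTRL (log2 −1.03, series block adjusted p = 0.0287). UBE3C, a HECT-type ubiquitin ligase, lay on opposite sides of the control. Its 65.1 to 88.6 CPM with siFBL were below, and its 137 to 216 CPM with siNOP56 above, the 105 to 130 CPM of siCTRL (log2 −1.14, series block adjusted p = 0.0287). DDX46, a DEAD-box helicase of the spliceosome, was at 86.7 to 140 CPM with siFBL and 161 to 263 with siNOP56, against 172 to 249 with siCTRL (log2 −0.95, series block adjusted p = 0.033). DDX46 falls outside the rule for named genes and is given here because it completes the 6.

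TMEM109, a membrane protein of the endoplasmic reticulum and nuclear envelope, was the one gene of the 6 that was higher with siFBL (log2 1.90, SE 0.487, series block adjusted p = 0.0466). In siNOP56 replicate 2 it was at 32.8, 29.9 and 32.2 CPM at the 3 hours, and in replicate 1 at 126, 160 and 176. With siFBL it was at 218 to 519 CPM and with siCTRL at 185 to 270. The siNOP56 series were thus 2.27 log2 units apart, which is more than the difference between the siRNAs.

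**Figure D3:**
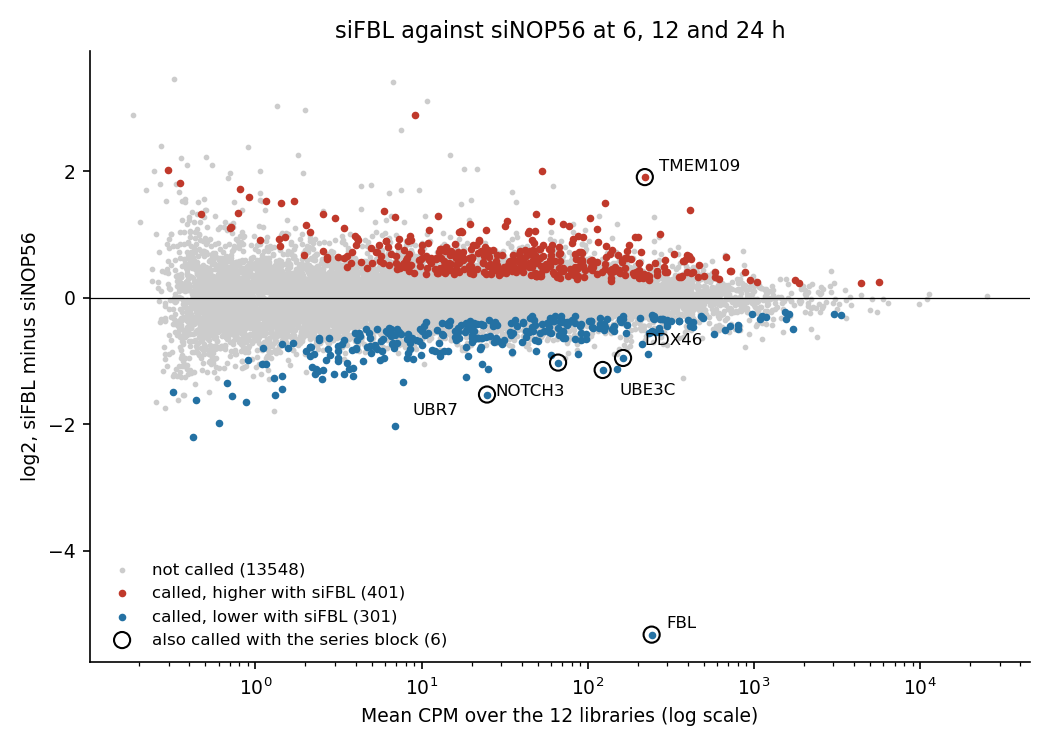
log2 difference, siFBL minus siNOP56, against mean CPM (log scale) for 14250 genes, with 401 called higher in red and 301 called lower in blue; open circles mark the 6 genes called also with the series block. FBL lies alone at −5.32, and most called genes lie within 2-fold.

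Apart from NOP56 and TMEM109, the highest named gene was SAT1 (log2 2.00), the acetyltransferase that starts polyamine breakdown. Next were CDC42EP1 (1.39), an effector of the GTPase CDC42, LGR5 (1.37), a receptor for R-spondins, and SLAIN1 (1.31), a microtubule end protein. CDS1 (1.29), a CDP-diacylglycerol synthase, SNX17 (1.25), a sorting nexin of endosomal recycling, SCARNA2 (1.22) and the kinase MARK3 (1.21) followed. Several of these rest on 1 series. SAT1 was at 21.6, 30.8 and 38.5 CPM in siFBL replicate 1, below the 22.5 to 48.9 CPM of siCTRL at each hour. In replicate 2 it was at 103, 137 and 175 CPM, and with siNOP56 at 11.4 to 36.3. LGR5 was likewise at 3.5 to 5.87 CPM in siFBL replicate 1 and at 10.9 to 15.7 in replicate 2, against 2.39 to 4.08 with siNOP56. MMP24, a membrane-bound metalloproteinase outside the naming rule, had the highest log2 difference among called genes (2.88). It held 2.31, 1.85 and 3.56 CPM in siFBL replicate 1 and 25, 27.8 and 36.6 in replicate 2, with siNOP56 at 1.34 to 3.26. Of the 51 named genes that were called, 7 had a larger gap between replicate series of one siRNA than between the siRNAs.

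SLAIN1 and MARK3 were raised in both siFBL series. SLAIN1 stood at 49.8, 52.1 and 47 CPM in replicate 1 and 80.4, 91.6 and 95.3 in replicate 2, above the 20.9 to 36.9 CPM of siNOP56 and the 17.7 to 25.9 of siCTRL. CDC42EP1 was raised against siCTRL with siFBL (log2 2.41, edgeR adjusted p = 4.79e-06) and with siNOP56 (log2 1.02, edgeR adjusted p = 0.00887). Its siFBL series stood 1.40 log2 units apart, against 1.39 between the siRNAs, and siFBL replicate 1 at 24 h (202 CPM) lay beside siNOP56 replicate 2 (198 CPM). The difference between the siRNAs was not called with the series block (adjusted p = 0.175).

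On the lower side, the named genes after FBL were SDC4 (log2 −2.03), the heparan sulfate proteoglycan syndecan-4, UBR7, PALM3 (−1.33), a paralemmin, IGDCC3 (−1.25), a membrane protein of the immunoglobulin superfamily, UBE3C, YKT6 (−1.13), a SNARE of membrane fusion, LRRC20 (−1.12), a leucine-rich repeat protein, RPL22L1 (−1.05), a paralog of the ribosomal protein RPL22, and NOTCH3. The siFBL series were close for SDC4: 1.81 and 2.22 CPM at 6 h, 3.35 and 2.57 at 12 h, and 2.59 and 3.76 at 24 h. With siNOP56 it was at 7.35 to 16.8 CPM and with siCTRL at 10.3 to 19.2 (edgeR adjusted p = 0.000442, series block adjusted p = 0.0728). PALM3, at 3.78 to 5.05 CPM with siFBL, was below the 5.65 to 7.01 of siCTRL, and with siNOP56, at 7.76 to 16.5, above it. RPL22L1 was lowered by both: 11.8 to 19.7 CPM with siFBL and 17.8 to 46.5 with siNOP56, against 82.1 to 110 with siCTRL. Its siNOP56 series differed, replicate 1 at 39.6 to 46.5 CPM and replicate 2 at 17.8 to 20.6.

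**Figure D4:**
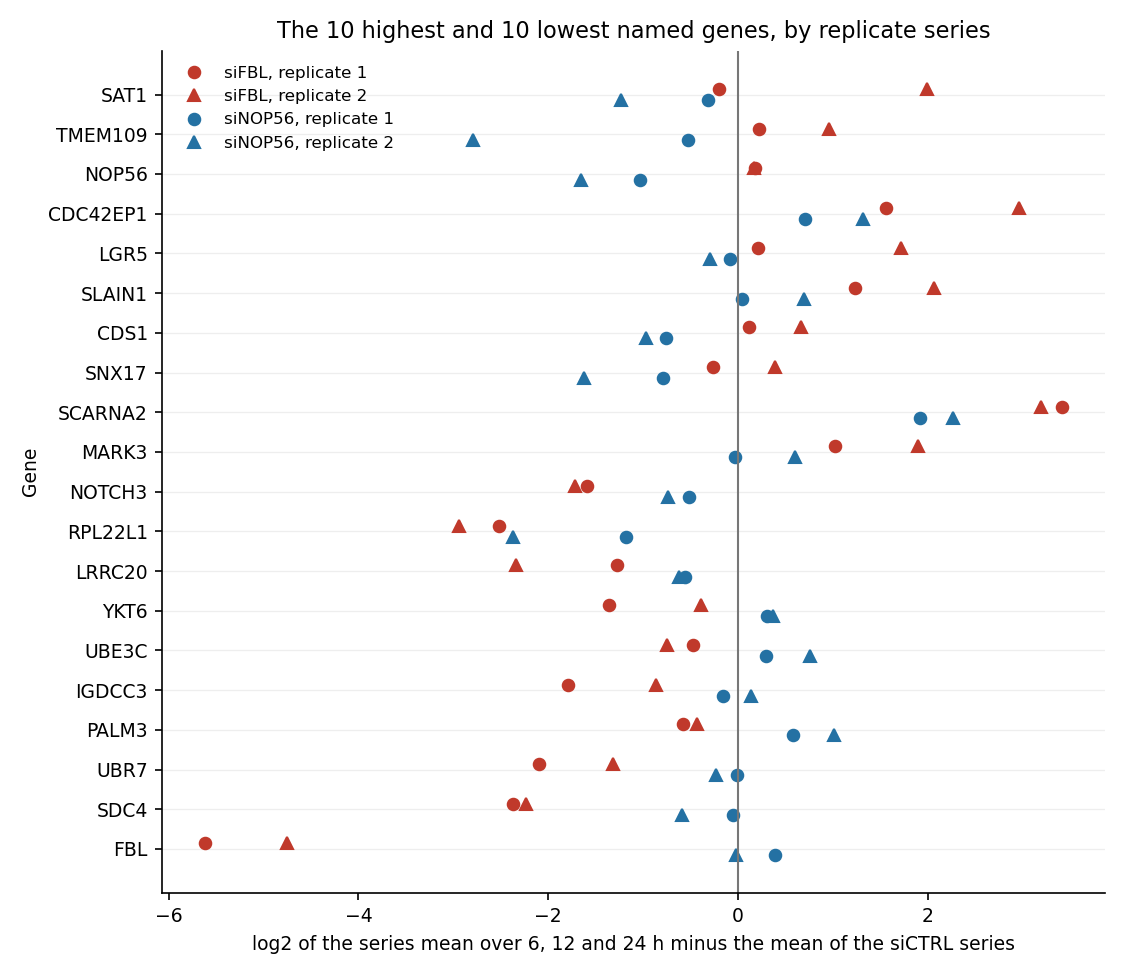
For the 10 highest and 10 lowest named genes, log2 of each replicate series' mean over 6, 12 and 24 h minus the mean of the siCTRL series; circles are replicate 1 and triangles replicate 2. SAT1 has 1 siFBL series near siCTRL and 1 far above it, while both siFBL series of SDC4, NOTCH3 and SCARNA2 lie close together.

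In the gene lists that follow, no member was called with the series block, and the calls counted are those of edgeR. Over all genes tested, edgeR called 2.81% higher and 2.11% lower with siFBL, the shares to set beside each count. For counts at an unadjusted p below 0.05 in edgeR, the background was 3374 of the 14250 genes tested. The guide RNAs of the particle were little covered in these polyA libraries. Of 262 rows named SNORD, the box C/D guides of the nucleolus, 17 passed the filter on low counts, and of 106 named SNORA, the guides of the pseudouridylating H/ACA particles, 24 passed. None of these was called by edgeR. At an unadjusted p below 0.05 there were 2 SNORD and 1 SNORA rows, and DESeq2 called 0 and 1. Of 24 rows named SCARNA, the guides of Cajal bodies, 7 were tested and 2 were called, both higher with siFBL, where 2.81% of all genes were. The median log2 difference was −0.31 over the SNORD rows, 0.09 over SNORA and −0.05 over SCARNA. The sign of the last median is positive under the ribosomal protein scaling (0.08) and with the series block (0.35). Under that scaling the median over all genes was 0.13. The 2 RNAs below were chosen after their values were seen: SCARNA2 is the guide RNA with the largest called difference between the siRNAs, and SNORD17 was lowered by both. Capitals mark the box C letters TGATGA and the last CTGA, the box D letters. SCARNA2 is shown from base 331 to 420 of its 420 bases (chr1:109100523-109100612, plus strand) and SNORD17 whole (chr20:17962710-17962946, minus strand), both from GENCODE release 29 transcripts on GRCh38.
SCARNA2: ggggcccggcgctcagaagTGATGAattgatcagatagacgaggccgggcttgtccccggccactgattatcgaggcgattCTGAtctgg
SNORD17: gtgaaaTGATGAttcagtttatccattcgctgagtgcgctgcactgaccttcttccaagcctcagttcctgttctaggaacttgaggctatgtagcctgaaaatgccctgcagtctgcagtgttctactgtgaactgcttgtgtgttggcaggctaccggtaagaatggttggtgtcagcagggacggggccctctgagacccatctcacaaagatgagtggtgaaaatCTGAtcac
On the transcript strand, TGATGA was present in 223 of 288 SNORD transcripts of that release (77.4%), in 11 of 25 SCARNA (44%) and in 5 of 149 SNORA (3.36%). The letters are a description of the sequence and not a mapped binding site.

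SCARNA2, which guides methylation of the spliceosomal U2 RNA, stood higher at each later hour in each series. With siFBL it stood at 15.2 and 16 CPM at 6 h, 45.4 and 35.2 at 12 h, and 90.6 and 70.6 at 24 h. With siNOP56 it was at 5.36 and 8.66, 14.9 and 19.3, and 34.1 and 34.2 CPM. With siCTRL it was at 1.24 and 1.01, 4.17 and 3.11, and 12.9 and 9.96 CPM. The 3 groups were apart at each hour, in the order siFBL, siNOP56, siCTRL (siFBL against siNOP56 log2 1.22, SE 0.134, edgeR adjusted p = 0.00222, series block adjusted p = 0.0728). At 0 h SCARNA2 was at 0 to 0.222 CPM in all 6 libraries. SCARNA17, called as well (log2 0.68, edgeR adjusted p = 0.029, series block adjusted p = 0.915), was at 1.3 to 3.82 CPM with siFBL, 0.626 to 2.49 with siNOP56 and 0.282 to 1.6 with siCTRL. SNORD17 was at 1.86 to 2.51 CPM with siFBL and 2.5 to 3.4 with siNOP56, a difference that was not called (log2 −0.39, edgeR adjusted p = 0.117). With siCTRL it was at 10.2 to 16.5 CPM.

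Among noncoding hosts of snoRNAs, 1 of 19 tested was called, higher with siFBL, where 2.81% of all genes were. It was SNHG9 (log2 0.83), at 15.7 to 37.8 CPM with siFBL and 9.85 to 20.6 with siNOP56. Among 14 assembly factors of snoRNPs, 1 was called, higher with siFBL, where 2.81% of all genes were. It was PHAX (log2 0.50), the export adaptor that also carries snoRNAs to Cajal bodies. Of the 6 H/ACA core genes, edgeR called 0, with 1 at an unadjusted p below 0.05, and DESeq2 called 0.

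Ribosomal protein mRNAs were the list with the most calls. Of 77 tested, 9 were called, all lower with siFBL, where 2.11% of all genes were, and 63 had a log2 difference below 0. The list median was −0.17, against −0.0002 over all genes, and it was −0.17, −0.20 and −0.15 at 6, 12 and 24 h and −0.17 at 0 h. Under the ribosomal protein scaling, which sets their sum equal by construction, the median was −0.03 and 4 were called. No member was called with the series block, and leaving out libraries or series gave 1 to 32 calls. RPL13A, a protein of the large subunit whose gene hosts box C/D snoRNAs, was called (log2 −0.62, edgeR adjusted p = 0.006). It stood at 28.4 and 35.2, 33.6 and 37.1, and 30.6 and 34.7 CPM with siFBL at 6, 12 and 24 h. With siNOP56 it was at 46.4 and 46.9, 54.2 and 50.6, and 56.4 and 54.3 CPM, and with siCTRL at 124 to 169. Both knockdowns were far below the control and siFBL lay below siNOP56 in each library. RPS29 (log2 −0.53) and RPS3 (log2 −0.49), proteins of the small subunit, were called too. RPS3 had 1381 to 1906 CPM in siFBL replicate 1, 1043 to 1225 in replicate 2, and 1740 to 2235 with siNOP56. Genes that share reads with pseudogenes, as many ribosomal protein genes do, are uncertain in these counts.

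Of 60 ribosome biogenesis factors, 1 was higher and 2 were lower (median −0.02), a share near the 4.93% of all genes, and 0 were called with the series block. EMG1 (log2 0.47), a methyltransferase of the small subunit rRNA, was higher, and UTP3 (−0.82), a component of the small subunit processome, and BOP1 (−0.44), a processing factor of the large subunit, were lower. UTP3 stood at 4.73 to 7.58 CPM with siFBL and at 9.11 to 13.5 with siNOP56, and siCTRL was at 10.9 to 13.7. BOP1 was above siCTRL with both: 291 to 405 CPM with siFBL, 356 to 649 with siNOP56 and 240 to 301 with siCTRL. Of 15 genes of RNA polymerase I and its factors, 2 were higher, where 2.81% of all genes were: TAF1B (log2 0.55, series block adjusted p = 0.652), of the selectivity factor, and POLR1D (log2 0.49, series block adjusted p = 0.304), a subunit shared with RNA polymerase III. POLR1D was at 104 to 113 CPM with siFBL, 68.3 to 87.8 with siNOP56 and 80.3 to 90.9 with siCTRL. The precursor ribosomal RNA row RNA45S5 was not called (log2 −0.10, edgeR adjusted p = 0.471).

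Among ATF4 targets and genes of amino acid supply, 6 of 39 tested were called, all lower with siFBL, where 2.11% of all genes were (median −0.15). They were JDP2 (log2 −1.44), a transcription factor that binds AP-1 sites, DDIT4 (−0.56), an inhibitor of mTORC1, the transcription factor ATF4 itself (−0.50), and the enzymes SHMT2 (−0.44), CTH (−0.42) and PYCR1 (−0.38) of serine, cysteine and proline metabolism. The last 3 are named to complete the count. Of the 39 tested, 21 had a log2 difference below 0 and 18 above. The list median was −0.05 at 6 h, −0.12 at 12 h and −0.07 at 24 h. ATF4 stood at 587 and 435, 742 and 518, and 994 and 679 CPM with siFBL at 6, 12 and 24 h. With siNOP56 it stood at 730 and 698, 994 and 870, and 1239 and 1061 CPM, and with siCTRL at 970 to 1688. The groups were apart at each hour, both knockdowns were below siCTRL, and siFBL was the lower (series block adjusted p = 0.295). The siFBL series of ATF4 were 0.4996 log2 units apart, against 0.4959 between the siRNAs. JDP2, at 0.538 to 1.02 CPM with siFBL and 1.46 to 2.79 with siNOP56, is a low-count gene. None of the list was called with the series block. Of 26 genes of the unfolded protein response of the endoplasmic reticulum, 1 was called, lower with siFBL, where 2.11% of all genes were. It was HERPUD1 (log2 −0.63), a component of protein degradation at that membrane. It stood at 5.24 to 8.58 CPM with siFBL and 8.9 to 12.5 with siNOP56, and at 12.3 to 26.7 with siCTRL.

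Of 21 glycolysis genes, 3 were called by edgeR and 0 with the series block. All 3 were lower with siFBL, where 2.11% of all genes were: PFKFB3 (log2 −0.47), which makes the activator of phosphofructokinase, LDHA (−0.43), lactate dehydrogenase, and PFKL (−0.36), the liver type of phosphofructokinase. The list median of −0.12 became 0.01 under the ribosomal protein scaling, where 1 was called and the median over all genes was 0.13. LDHA stood at 1364 and 1175 CPM at 6 h, 555 and 524 at 12 h, and 269 and 233 at 24 h with siFBL. With siNOP56 it was at 1648 and 1683, 706 and 763, and 351 and 341 CPM. MLXIPL (log2 −0.69), the carbohydrate-responsive transcription factor also called ChREBP, was the 1 called of 7 genes of TXNIP and related arrestins. It was lower with siFBL, where 2.11% of all genes were.

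Among p53 targets 2 of 34 were called, both higher with siFBL, where 2.81% of all genes were: TRIAP1 (log2 0.76, series block adjusted p = 0.633), an inhibitor of apoptosis, and the death receptor FAS (log2 0.63, series block adjusted p = 0.566). FAS was at 11 to 16.5 CPM with siFBL, 5.97 to 11.5 with siNOP56 and 5.17 to 8.61 with siCTRL. Among 59 genes of mRNA decay, 3 were called by edgeR and 0 with the series block. All 3 were higher, where 2.81% of all genes were: DIS3L (log2 0.62), the nuclease of the cytoplasmic exosome, and the poly(A)-binding proteins PABPC4 (0.40) and PABPC1 (0.25). The list median of 0.004 was 0.14 under the ribosomal protein scaling, where the median over all genes was 0.13. DIS3L was at 58.2 to 65.8 CPM with siFBL in both series, 34.9 to 47 with siNOP56 and 34 to 45.6 with siCTRL. Among 28 targets of nonsense-mediated decay, TBL2 (log2 0.67) and the splicing factor SRSF6 (log2 0.43) were higher, where 2.81% of all genes were. ATF4 was lower, where 2.11% of all genes were. The list median was −0.12, with 13 members above 0 and 15 below, and 0 were called with the series block.

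The remaining lists gave at most 1 call or concern the identity of the cells. Of 20 heat shock genes, 1 was called, HSPA1B (log2 −0.36), lower with siFBL, where 2.11% of all genes were. Of that list, 6 members had a log2 difference above 0 and 14 below. Of 35 G2/M genes, 1 was called, KIF2C (log2 −0.45), a mitotic kinesin, also lower, where 2.11% of all genes were. That list had 20 members above 0 and 15 below (median 0.03). The lists for cholesterol synthesis, S phase, histones, interferon response, immediate early mRNAs, m6A factors and the respiratory chain had none called by edgeR. Of their 253 tested genes, 47 were at an unadjusted p below 0.05, and 10 were called by DESeq2. Over all genes, 3374 of 14250 were at an unadjusted p below 0.05 in edgeR, and DESeq2 called 1503. Of 15 markers of HEK293T, all were detected in each library. Their summed level at 6 to 24 h was 1722 to 1880 CPM with siFBL, 1577 to 2013 with siNOP56 and 1359 to 1426 with siCTRL. HOXC10 (log2 0.63) and HOXA9 (log2 0.60), 2 of the 15, were higher with siFBL, where 2.81% of all genes were. KLK3, the defining prostate marker, was at 0 in all 24 libraries. Of the fibroblast list, COL1A1 (13.4 to 63.5 CPM) and FBLN1 (44.7 to 178 CPM) were detected in every library, while COL1A2 reached at most 0.0622 CPM and FAP was at 0. The leukocyte marker PTPRC reached at most 0.0462 CPM.

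**Figure D5:**
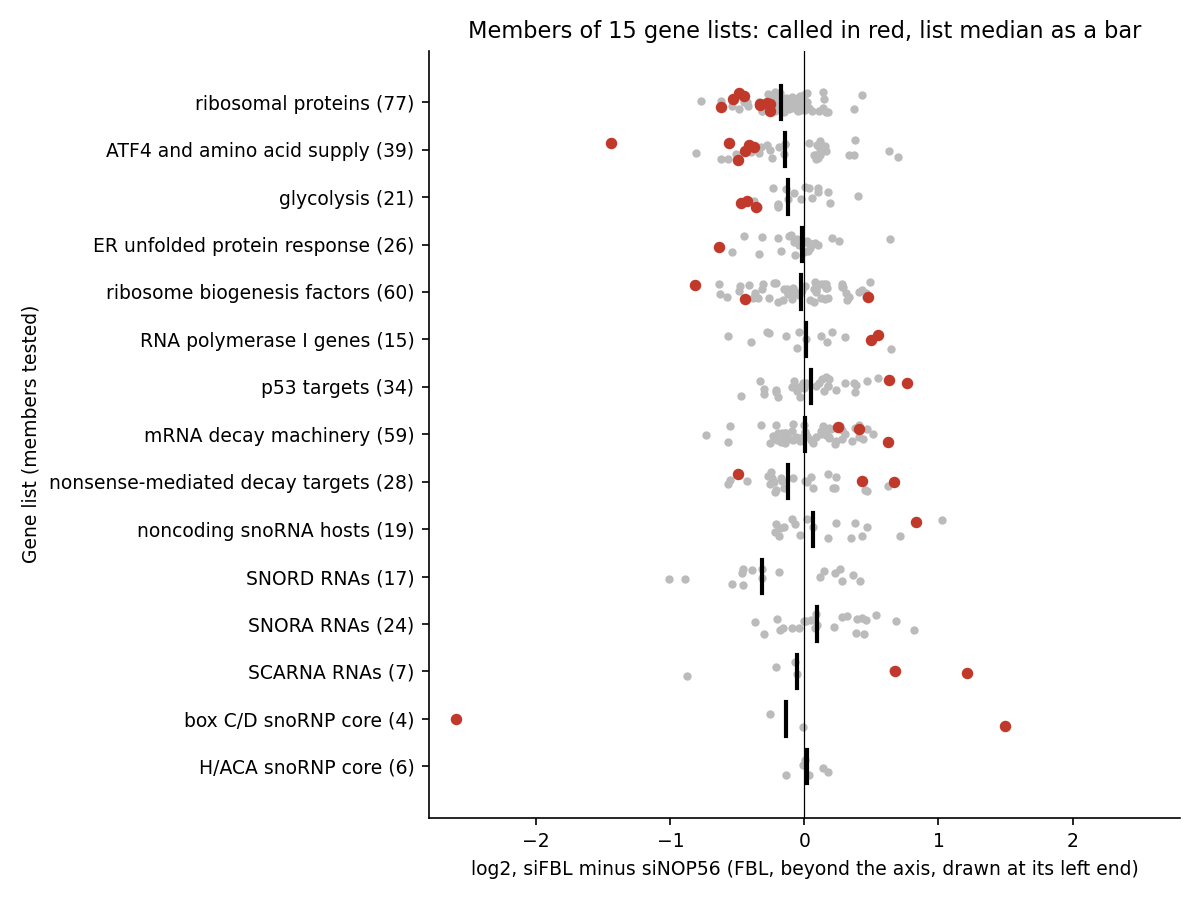
log2 difference, siFBL minus siNOP56, of each tested member of 15 gene lists, called members in red and the list median as a black bar; the number of members tested is beside the name. The 9 called ribosomal protein mRNAs and the 6 called members of the ATF4 list lie below 0, and the SNORD and SNORA rows hold no called member.

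Whether the difference between the siRNAs changed with the hour was tested as an interaction. Of 14250 genes, 0 were called by edgeR and 0 by DESeq2, with 32 at an unadjusted p below 0.05 in each. That is far fewer than this threshold passes when nothing differs. The gap between replicate series stays in the spread of this test, so its 0 calls do not show that the differences were stable. With a factor for each replicate series, added after the data were seen, 533 genes were at an unadjusted p below 0.05 in edgeR. Of these, 1 was called, NOP56 (edgeR adjusted p = 1.34e-06). ZMAT5 and SDK1, the other genes that the naming rule gives for this test, had interaction p-values of 0.0427 and 0.0748 before adjustment and were not called. The log2 difference of ZMAT5 was 0.33 at 6 h, −0.14 at 12 h and −0.38 at 24 h.

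At 0 h the same 2 targets were the genes called. FBL was at 17.7 and 15.5 CPM with siFBL and 341 and 371 with siNOP56 (log2 −4.42, edgeR adjusted p = 0.00234). NOP56 was at 360 and 354 CPM with siFBL and 91.9 and 76.3 with siNOP56 (log2 2.08, edgeR adjusted p = 0.0382). Leaving out 1 of these 4 libraries left 0 or 1 calls. An unadjusted p below 0.05 was found for 382 genes. Of the 701 genes called at the later hours that were tested at 0 h too, 689 had a log2 difference of the same sign at 0 h. The 0 h libraries carry the same replicate numbers as the later ones, so this is no independent support.

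Set against siCTRL at 6, 12 and 24 h, siFBL gave 6392 called genes of 14493 (44.1%), 22.7% higher and 21.4% lower, with a median absolute log2 difference of 0.33. For siNOP56 there were 4592 (31.7%), 16.3% higher and 15.4% lower, and the median was 0.26. These contrasts share the 6 siCTRL libraries, the target mRNAs were lowered to unequal depth, and the counts are only set side by side. With the series block they gave 2567 and 964 calls. Of the 702 genes called between the siRNAs, 217 were called against siCTRL with both, 365 with siFBL alone, 107 with siNOP56 alone and 12 with neither, and 1 was not tested against siCTRL.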

How the data were processed

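The deposited files hold read counts per gene symbol that the authors made, 1 table for each siRNA. The sources used here name no aligner, counter, strand setting or annotation, so overlapping and antisense genes cannot be told apart. Per the submitters' processing notes the builds hg38, GRCh38.p13 and hg19 were named, without their roles. No molecular identifiers are stated, so counting precision covers counting error only.

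Libraries were grouped by the labels. Counts were fitted with edgeR 4.0.16 (TMM, filterByExpr, quasi-likelihood test) in R 4.3.3, with limma 3.58.1 for the series block and DESeq2 1.42.0 as an alternative. The scripts were tested on simulated data. Replicates of each group differed beyond sampling noise, and no library was merged or left out. The 0 h comparison used all 16 siFBL and siNOP56 libraries with 1 mean per siRNA and hour. Comparisons with siCTRL used 18 libraries.

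Named genes are the box C/D core, the 10 highest and 10 lowest called genes that average 5 CPM or more and whose libraries are apart at each hour, up to 3 called genes in each direction per list, and the 3 smallest interaction p-values at that level. Members of 31 lists were matched by symbol. Of 18 symbols that were absent, 3 were found under RefSeq synonyms (GRCh38.p14) and 15 had no match, among them all 13 mRNAs of the mitochondrial genome. The libraries and lists were chosen with earlier results of these data known. Alternatives were other scalings, tools and filters, the replicate block, left-out libraries and series, single hours, and summed counts.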

Additional observations from a re-analysis of the deposited data

Results flagged for a closer look

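The difference between siFBL and siNOP56 in NOP56 mRNA changed with the hour when each replicate series had its own factor (edgeR's quasi-likelihood test of the interaction, adjusted p = 1.34e-06). From 6 to 24 h, NOP56 changed by log2 −0.91 and −0.89 in the siFBL series, by 0.25 and 0.05 in the siNOP56 series, and by −0.03 and −0.14 in the siCTRL series. The same test without that factor gave an unadjusted p of 0.0584. NOP56 is itself the target of 1 of the siRNAs, and what the change rests on was not tested.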

How the results depend on the processing

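The number of genes called between siFBL and siNOP56 at the later hours, 702 in the reported fit, was 676 with relative log expression factors, 562 with no filter on low counts and 1022 under the ribosomal protein scaling. It was 1503 with DESeq2 (849 higher, 654 lower), 1611 with all 24 libraries in the fit, 6 with the series block, 1 with counts summed over the hours of each series, and 2, 1 and 1 at 6, 12 and 24 h alone. Without single libraries it ranged from 190 to 736. Without siFBL replicate 1 at all hours it was 3986, and without siNOP56 replicate 1 at all hours 1754; the cause was not tested. The differences between replicates 1 and 2 in siFBL and in siNOP56 correlated at −0.0246 to 0.0237, so the siRNAs shared no gene-by-gene replicate pattern. Whether equal replicate numbers mark a shared culture or batch is not stated. With the replicate block 2751 genes were called (1538 higher, 1213 lower). The interaction, with 0 calls, gave 1 with a factor for each replicate series, and 0 without each single library. At 0 h DESeq2 called 4 genes in place of 2, the replicate block 3, and leaving out a library 0 to 1. With the series block the contrasts with siCTRL gave 2567 and 964 calls. For the 55 named genes under 27 alternatives, none of the 1485 values reversed a call, 902 kept their side of the threshold, 579 lost a call and 4 gained one.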
